A study of Mus musculus with 2 samples.

Results

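The collagen genes are the 44 genes, of 31053 in the files, whose symbol is Col, a number, the letter a and a number, such as Col1a2. They were chosen by symbol alone, and all 44 had a UMI (a unique molecular identifier, which marks 1 captured RNA molecule) in the cells described here. Whole aorta-gonads-mesonephros (AGM) regions of mouse embryos at embryonic day 11 were dissociated with collagenase and sequenced by the 10x Chromium 3′ method, with 1 library from PDGFRB +/+ (WT) embryos and 1 library from PDGFRB -/- (KO) embryos, each loaded for 7000 cells. Per the study's methods the KO line is kept as heterozygotes on a C57BL/6J background. The study takes these mice to lack pericytes but holds that some perivascular cells are left. PDGFRβ, the protein of Pdgfrb, is a receptor of the mural cells that wrap blood vessels, and the study asked what its loss does to the tissue around the aorta in which the first blood stem cells form. The number of embryos per library is not given in the sources used here. With 1 library per genotype, genotype cannot be told apart from embryo, sex or library, and no test was made. Every interval in parentheses is a 95% counting interval that leaves out the variation between cells and between embryos.

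Collagens are the main structural proteins of the extracellular matrix, built from chains that wind around each other into a rope-like helix. Glycine, the smallest amino acid, recurs along each chain because no other fits the core of the helix, so that the chains repeat a triplet that starts with it. Fibrillar collagens form the cables of connective tissue and cartilage, type IV forms the sheet of the basement membrane under epithelia and around vessels, and FACIT collagens (fibril-associated collagens with interrupted helices) sit on the surface of fibrils. The cells of the embryonic trunk that lay down this matrix are mostly mesenchymal, and they surround the dorsal aorta.

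The repeat that defines the family can be read in the coding sequences. Exons of exactly 54 bases, each 6 glycine triplets long, recur through the helix of the fibrillar chains. The first such exon in the longest uninterrupted repeat is shown for the genes on which the results below turn, from the GENCODE M21 transcripts on GRCm38, 5′ to 3′ along the transcript. Capitals mark the codons of the form GGN, all of which encode glycine, at the start of each triplet.
Col1a1 exon 8, chr11:94939904-94939957, plus strand: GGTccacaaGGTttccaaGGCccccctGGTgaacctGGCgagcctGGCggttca
Col1a2 exon 8, chr6:4515481-4515534, plus strand: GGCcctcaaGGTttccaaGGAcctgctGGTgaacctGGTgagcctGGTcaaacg
Col3a1 exon 6, chr1:45325360-45325413, plus strand: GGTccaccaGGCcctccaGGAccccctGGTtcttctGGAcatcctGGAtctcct
Col2a1 exon 10, chr15:97996489-97996542, minus strand: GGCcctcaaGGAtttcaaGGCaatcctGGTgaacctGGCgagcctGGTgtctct
Col11a1 exon 15, chr3:114108281-114108334, plus strand: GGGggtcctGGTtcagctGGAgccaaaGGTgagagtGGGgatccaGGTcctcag
Col9a2 exon 12, chr4:121045141-121045194, plus strand: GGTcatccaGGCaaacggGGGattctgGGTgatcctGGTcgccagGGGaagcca
Col9a3 exon 12, chr2:180605727-180605780, plus strand: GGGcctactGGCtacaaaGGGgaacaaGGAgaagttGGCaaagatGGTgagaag
Col4a1 exon 7, chr8:11245211-11245264, minus strand: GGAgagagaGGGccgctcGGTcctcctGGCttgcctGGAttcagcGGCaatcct

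Across the family, the longest run of triplets with a glycine codon in front set the fibrillar genes apart. Of the 11 fibrillar genes, Col24a1 and Col27a1 had runs of 216 and 217 triplets and the others of 337 to 344. In Col3a1, with 344 triplets, the run took up 70.5% of the coding sequence and spanned 42 whole exons, 24 of them of 54 bases. The next longest runs, 113 triplets, were those of the 3 chains of type IX collagen and of Col22a1. The 6 type IV chains had longest runs of 39 to 66 triplets but 425 to 444 triplets in all when every run of at least 5 is counted, so their repeat is long but interrupted. The shortest run, 23 triplets, was that of Col26a1. The counts were made from tags at the 3′ end of transcripts and do not measure these exons.

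**Figure D1:**
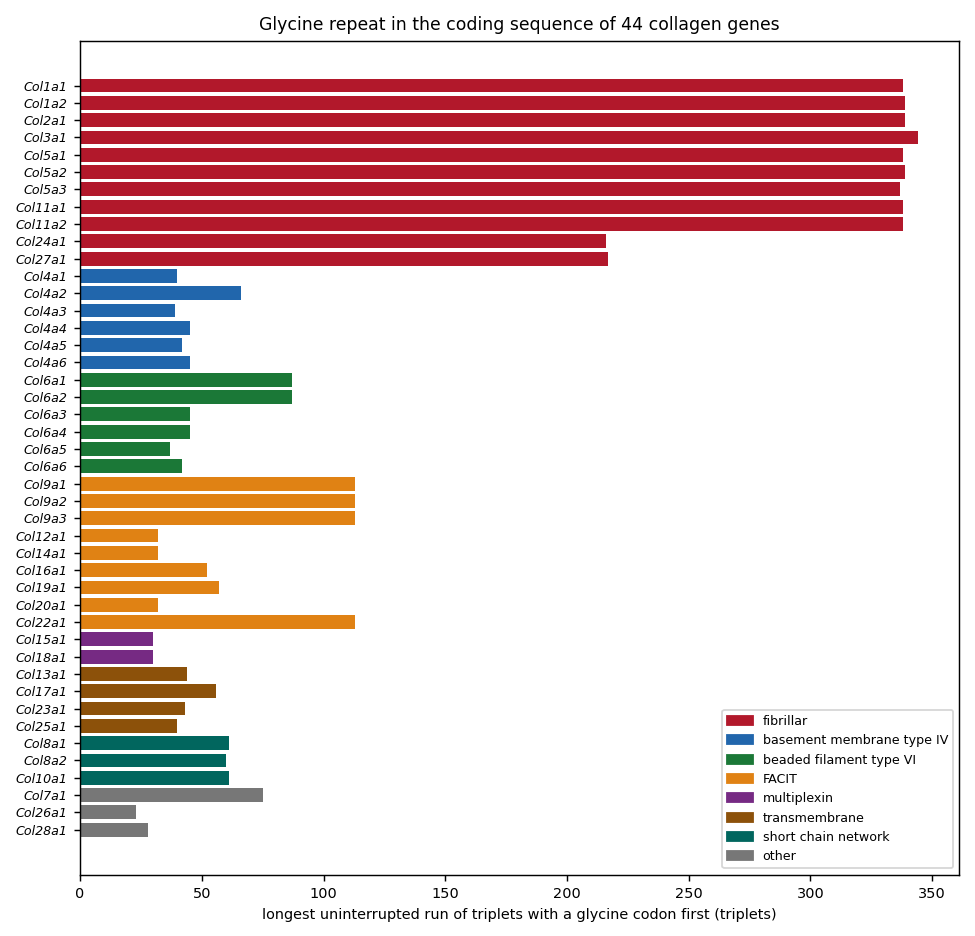
Horizontal bars give the longest uninterrupted run of triplets that begin with a glycine codon (x axis, triplets) in the longest complete coding sequence of each of the 44 collagen genes (y axis), coloured by structural group. The fibrillar genes reach 216 to 344 triplets, and all other genes 23 to 113.

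Several members are neighbours in the genome, on GRCm38. Col4a1 (chromosome 8, 11198423 to 11312826, minus strand) and Col4a2 (chromosome 8, 11312805 to 11449287, plus strand) are transcribed away from each other, and the genes overlap by 22 bases at their starts. The other type IV genes lie in pairs of the same kind, with 71 bases between Col4a4 and Col4a3 on chromosome 1 and 1308 bases between Col4a6 (141165403 to 141474076) and Col4a5 (141475385 to 141689234) on the X chromosome. In promoter windows of RefSeq, from 250 bases before to 50 after the start of a gene on GRCm38.p6, 35 of the collagen genes could be matched. The letters CCAAT, on either strand, were in the windows of 13 of the 35, Col1a2, Col4a1, Col4a2 and Col11a1 among them, and in 37.4% of all 32851 windows. TATAAA was in the windows of 5 of the 35, Col3a1 and Col11a2 among them, and in 13.6% of all windows. Both are descriptions of letters and show no binding.

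The libraries held 8253 cells (WT) and 8165 cells (KO) with at least 2000 UMIs and under 10% mitochondrial UMIs, with medians of 13321 and 12391 UMIs per cell, and 20 barcodes occurred in both. Pdgfrb itself reached 43.1 CPM (a gene's UMIs per 1000000 UMIs of the same cells) in WT and 7.09 CPM in KO, so its RNA was lower and not absent in the library labelled KO, and whether the 3′ tag lies outside the deleted part is not given in the sources used here. The study took KO cells in which it detected this gene out of its data. Such cells are kept here, except in settings that say they were removed. Cells were gated into 11 described classes by UMIs of at least 3 of 8 marker genes, with no collagen gene among the markers, and classes carry the word -like for that reason. The 10 genes that led each class by fold held 2 to 6 of its own markers and none of another class, and those of sclerotome-like cells also held Col2a1, Col9a2 and Col9a3. The 4 mesenchymal-like classes (trunk, visceral, smooth muscle and sclerotome) and cells tied between them made up 5214 cells in WT and 5526 in KO. Sclerotome-like cells, the precursors of vertebral cartilage, numbered 476 in WT and 811 in KO, and visceral mesenchyme-like cells 425 and 261.

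Collagen RNA was abundant in the mesenchymal-like cells as a whole and in endothelial-like cells, and near 0 in blood cells. Of all UMIs of WT mesenchymal-like cells, 0.344% (0.342 to 0.345%) came from collagen genes, and 0.313% (0.311 to 0.314%) in KO. The highest share was that of smooth muscle-like cells, the contractile cells of vessel and gut walls, with 0.585% in WT and 0.469% in KO. Endothelial-like cells, which line vessels, gave 0.242% (0.235 to 0.248%) in WT and 0.239% (0.233 to 0.245%) in KO, the latter above the 0.194% of KO visceral mesenchyme-like cells. Macrophage-like cells, at 0.00540% and 0.00838%, and erythroid-like cells, at 0.00569% and 0.00420%, marked the background. Barcodes of at most 100 UMIs, which hold free RNA, gave 0.264% in WT and 0.293% in KO. From globin UMIs, free RNA was estimated at 1.25% (WT) and 1.16% (KO) of the UMIs of mesenchymal-like cells. For endothelial-like cells the estimates were 1.87% and 20.9%, which take all globin UMIs there as free RNA. Where the globin UMIs of the KO endothelial-like cells came from was not tested. The free RNA of KO held 857 UMIs of Col1a1 and 890 of Col1a2 among 2357914. The KO endothelial-like cells held 16 and 14 among 2979990, and how these counts bear on the 20.9% estimate was not tested. The ratios were recomputed with these shares subtracted, among the settings given at the end.

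**Figure D2:**
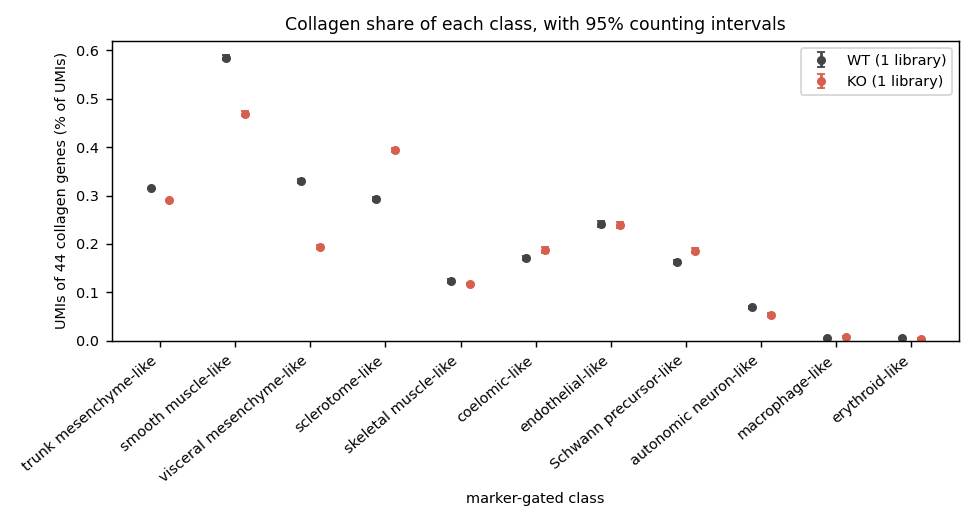
Points give the percent of UMIs from the 44 collagen genes (y axis) in each of the 11 classes (x axis) in the WT and the KO library, with 95% counting intervals, many of which are smaller than the points. Smooth muscle-like cells are highest in both libraries, sclerotome-like cells are higher in KO, and visceral mesenchyme-like cells are lower in KO.

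The structural groups differed in the class where they were highest. Of the 44 genes, 18 reached 100 CPM in at least 1 class, and for 17 of these 18 the class with the highest level was the same in both libraries. The exception was Col5a2, a minor chain of mixed fibrils, highest in smooth muscle-like cells in WT (188 CPM) and in Schwann precursor-like cells in KO (172 CPM). Some genes that stayed below 100 CPM also differed in their highest class, Col4a6, Col6a1, Col6a2 and Col23a1 among them. CPM of 3′ UMIs count molecules and do not grow with transcript length, so levels of different genes are set side by side on that scale, although capture may differ between genes.

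The fibrillar chains of soft connective tissue were highest in smooth muscle-like cells. Col3a1, the homotrimer of distensible tissues, reached 1328 CPM there in WT and 853 CPM in KO. Col1a2 and Col1a1, the chains of type I collagen, reached 1253 and 1235 CPM in WT and 1065 and 788 CPM in KO. In trunk mesenchyme-like cells, the largest class, the WT levels were 684 CPM for Col3a1, 700.3 for Col1a2 and 532 for Col1a1. In sclerotome-like cells of WT they were lower, at 169, 150 and 109 CPM. In WT, Col3a1, Col1a2 and Col1a1 gave at least 51.7 CPM in Schwann precursor-like cells and at most 10.4 CPM in erythroid-like and macrophage-like cells.

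The collagens of cartilage were highest in sclerotome-like cells. Col2a1, the main fibril of cartilage, reached 965 CPM there in WT and 1128 CPM in KO, and the next class, trunk mesenchyme-like cells, 186 and 272 CPM. Col9a1, Col9a2 and Col9a3, whose chains join into type IX collagen on the surface of cartilage fibrils, reached 366, 159 and 155 CPM in WT sclerotome-like cells. The next class in WT was trunk mesenchyme-like cells for Col9a1 (112 CPM) and Col9a2 (23.5 CPM), and autonomic neuron-like cells for Col9a3 (47.2 CPM). The levels of the 3 genes in WT smooth muscle-like cells were 81.7, 8.92 and 6.92 CPM. Col11a1, which sits inside cartilage fibrils, reached 241 CPM in WT sclerotome-like cells and 118 CPM in the smooth muscle-like cells that followed. Its partner Col11a2 was scarce, with 12.5 CPM in WT sclerotome-like cells. Col14a1, a FACIT collagen, was highest in the same class, with 96.7 CPM in WT and 174 CPM in KO. Another FACIT collagen, Col12a1, went with smooth muscle-like cells, with 202 CPM in WT and 274 CPM in KO.

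The basement membrane collagens were highest in endothelial-like cells, and their levels there were close in the libraries. Col4a1 reached 886 CPM in WT and 923 CPM in KO, and Col4a2, its partner in the usual type IV chain trio, 552 and 534 CPM. Col18a1, a basement membrane collagen whose end fragment is endostatin, reached 527 and 531 CPM, and Col15a1, its relative among the multiplexins, 213 and 233 CPM. In the other 10 classes of WT, Col15a1 was at no more than 3.97 CPM. Type IV chains made up 59.7% of the collagen UMIs of endothelial-like cells in WT and 61.2% in KO, against 5.88% and 6.16% in mesenchymal-like cells. The next class for Col4a1 was smooth muscle-like cells, with 427 CPM in WT and 341 CPM in KO. The scarcer chains Col4a5 and Col4a6 were found in coelomic-like cells, the lining of the body cavity, at 57.3 and 14.8 CPM in WT, and in visceral mesenchyme-like cells at 47.5 and 19.2 CPM. Col4a3 and Col4a4, which in the adult belong to the kidney filter, stayed at or below 1.01 CPM in WT.

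Some less abundant collagens were highest outside the mesenchyme, though seldom absent from it. Col25a1, a transmembrane collagen of neurons and muscle, was highest in Schwann precursor-like cells, the glia of embryonic nerves, with 83.04 CPM in WT and 107 CPM in KO, followed by sclerotome-like cells with 41.4 and 53.5 CPM. Col26a1 was highest in skeletal muscle-like cells, with 156 CPM in WT and 147 CPM in KO, and trunk mesenchyme-like cells came next with 92.5 and 106 CPM. Col19a1 reached 27.4 and 30.9 CPM in skeletal muscle-like cells and at most 0.814 CPM in any other class of WT. Col20a1, a FACIT collagen chosen after its values were seen, was highest in Schwann precursor-like cells, with 13.6 CPM in WT and 41.1 CPM in KO. The KO UMIs of Col20a1 there numbered 137 in 59 cells, of which 1 cell held 16.

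**Figure D3:**
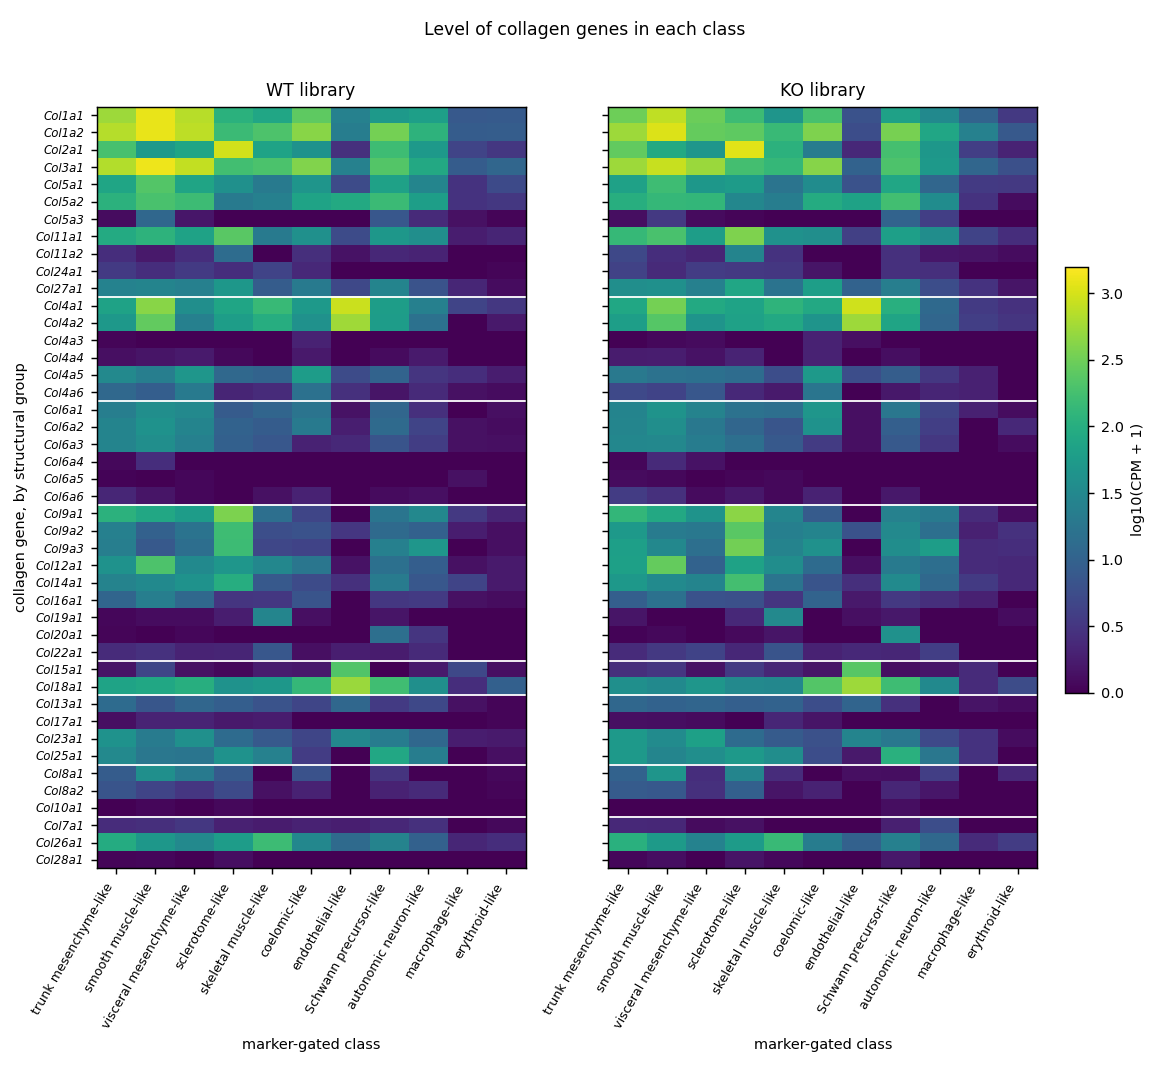
Colour gives log10(CPM + 1) of each of the 44 collagen genes (rows, in structural groups parted by white lines) in 11 classes (columns), for the WT library on the left and the KO library on the right. The rows of Col1a1, Col1a2 and Col3a1 are brightest in smooth muscle-like cells, that of Col2a1 in sclerotome-like cells, and those of Col4a1, Col4a2, Col15a1 and Col18a1 in endothelial-like cells.

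Over all mesenchymal-like cells, Col2a1 was found less often in those with Col1a2 than in the rest, but not in every class. With each cell thinned to 2000 UMIs, Col2a1 was found in 19.2% of the WT mesenchymal-like cells with a Col1a2 UMI and in 31.1% of those without one. In KO these shares were 27.5% and 37.3%. Col9a1 went with Col2a1 instead, and had a UMI in 41.1% of the WT cells with a Col2a1 UMI and in 13.3% of those without one, and in 46.9% and 11.8% in KO. Among trunk mesenchyme-like cells alone, the share of cells with Col2a1 was 19.1% with and 23.7% without Col1a2 in WT, and 22.3% and 29.6% in KO. Among sclerotome-like cells it was 72.3% and 73.3% in WT and 71.9% and 71.5% in KO. Among smooth muscle-like cells the share was higher with Col1a2, at 8.88% against 5.88% in WT and 10.8% against 7.41% in KO. Without thinning, Col2a1 had a UMI in 54.1% of WT and 61.0% of KO mesenchymal-like cells, and with it in 25.5% and 32.7%. In macrophage-like cells, where the gene is taken to be silent, the thinned shares were 2.01% in WT and 0% in KO, 0 of 135 cells, which allows a share of up to 2.70% by the exact binomial interval. These cells had medians of 16354 and 15405 UMIs, against 13648.5 and 13033 in mesenchymal-like cells. These are descriptions of cells of the same library.

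The WT cells were also parted by the genes of the 2 proteins with which the study defines its stromal layers, Pdgfrb for PDGFRβ and Cspg4 for NG2. Of the WT mesenchymal-like cells, 386 held UMIs of both (DP), 2029 of Pdgfrb alone (PDGFRβ-S), 241 of Cspg4 alone (NG2-S) and 2558 of neither (DN). The collagen share was 0.494% (0.490 to 0.498%) in DP, 0.394% (0.388 to 0.400%) in NG2-S, 0.360% (0.358 to 0.361%) in the PDGFRβ-S gate and 0.262% (0.260 to 0.264%) in DN cells. Of 35 collagen genes compared, 20 were highest in the DP gate, 9 in that of NG2-S, 5 in that of PDGFRβ-S and 1 among DN cells. The share of all genes highest in each gate was not counted, so these numbers are not read as a trait of collagens. Median UMIs per cell had nearly the same order, with 23304.5 for DP, 17181 for PDGFRβ-S, 14832 for NG2-S and 11545.5 for DN cells, and 33.2% of DP cells were smooth muscle-like against 5.42% of PDGFRβ-S cells. The part of depth in this order was not tested.

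Cartilage collagens were highest in the NG2-S cells. Col9a3 reached 151 CPM in NG2-S, 40.1 in DN, 25.9 in DP and 16.1 CPM in PDGFRβ-S cells, and Col11a2 16.9, 2.67, 2.07 and 1.17 CPM. Col14a1 reached 92.2 CPM in NG2-S and 27.4 CPM in PDGFRβ-S cells. Of the NG2-S cells, 26.1% were sclerotome-like against 3.55% of PDGFRβ-S cells. For Col9a3 among trunk mesenchyme-like cells alone, NG2-S cells were again highest and PDGFRβ-S cells lowest, while DP and DN cells changed places. Col9a3 there had 122 CPM in NG2-S, 31.3 in DP, 25.4 among DN and 12.4 CPM among PDGFRβ-S cells. Col11a1 did not share this order of the gates. Col1a2 and Col1a1 were highest in the DP cells, at 1103 and 930 CPM, against 452 and 376 CPM in DN cells. Among trunk mesenchyme-like cells alone, Col1a2 was still at 993 CPM in DP and 452 CPM in DN cells. Col4a1 stood at 245 CPM in DP cells and at 87.8 CPM in the trunk mesenchyme-like DP cells, against 61.4 and 61.2 CPM in DN, so that the gates differed less among trunk mesenchyme-like cells.

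The comparison of KO with WT asks which collagens differ where PDGFRβ is lost. In all mesenchymal-like cells, the summed collagen UMIs were slightly lower in KO, with a log2 ratio of −0.14 (−0.14 to −0.13). The fibrillar collagens were lower in sum, though by less than 1.5-fold, with 2611 CPM in WT and 2112 CPM in KO (log2 ratio −0.31), and the FACIT collagens were higher, with 294 CPM in WT and 485 CPM in KO (log2 ratio 0.72). Of 38 members with at least 50 UMIs, 6 were at least 1.5-fold lower in KO (5.16% of all 14750 genes tested were) and 12 at least 1.5-fold higher (5.4% of all genes). The median log2 ratio of the 38 members was 0.20, and that of all genes 0.026. The lower genes were Col1a1, Col4a5, Col4a6, Col5a3, Col17a1 and Col18a1. The higher genes were Col2a1, Col4a4, Col6a6, Col9a2, Col9a3, Col11a1, Col11a2, Col14a1, Col15a1, Col19a1, Col25a1 and Col27a1, so 5 of the 6 cartilage collagens (Col2a1, Col9a1, Col9a2, Col9a3, Col11a1 and Col11a2) were among them. With cells holding Barx1, Tlx1 or Nkx2-5 UMIs removed, 12 members were again higher, but Col2a1 was no longer one of them. Of the 11 fibrillar genes, 2 were lower (Col1a1 and Col5a3) and 4 higher (Col2a1, Col11a1, Col11a2 and Col27a1), and the lower sum lies in the abundant Col1a1, Col1a2 and Col3a1. Over all cells, 4 of 40 members were lower (6.11% of all genes) and 13 higher (6.78% of all genes).

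The mesenchymal-like cells of the libraries differed in their mix of classes. KO held more sclerotome-like cells, and with each mesenchymal-like class given equal weight the summed log2 ratio was −0.18, with 7 members lower and 8 higher. With cells holding a Pdgfrb UMI taken out of WT and KO alike, a setting chosen after seeing the data, 2799 of 5214 WT and 4812 of 5526 KO cells were left. This choice follows the genotype, since it reads the RNA that is lower in KO. It took the cells gated as DP and PDGFRβ-S, with their higher collagen shares, out of WT. Which KO cells would match them is not known, since the study could not identify these populations in KO. The values under this choice therefore show no stability or instability of a ratio and are given as a description. The summed log2 ratio was then 0.16, 2 members were lower (Col4a6 and Col18a1) and 14 higher. That of Col1a1 was −0.36, of Col1a2 0.056, of Col2a1 0.22, of Col4a5 −0.25 and of Col5a3 −0.070, none of them past 1.5-fold.

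**Figure D4:**
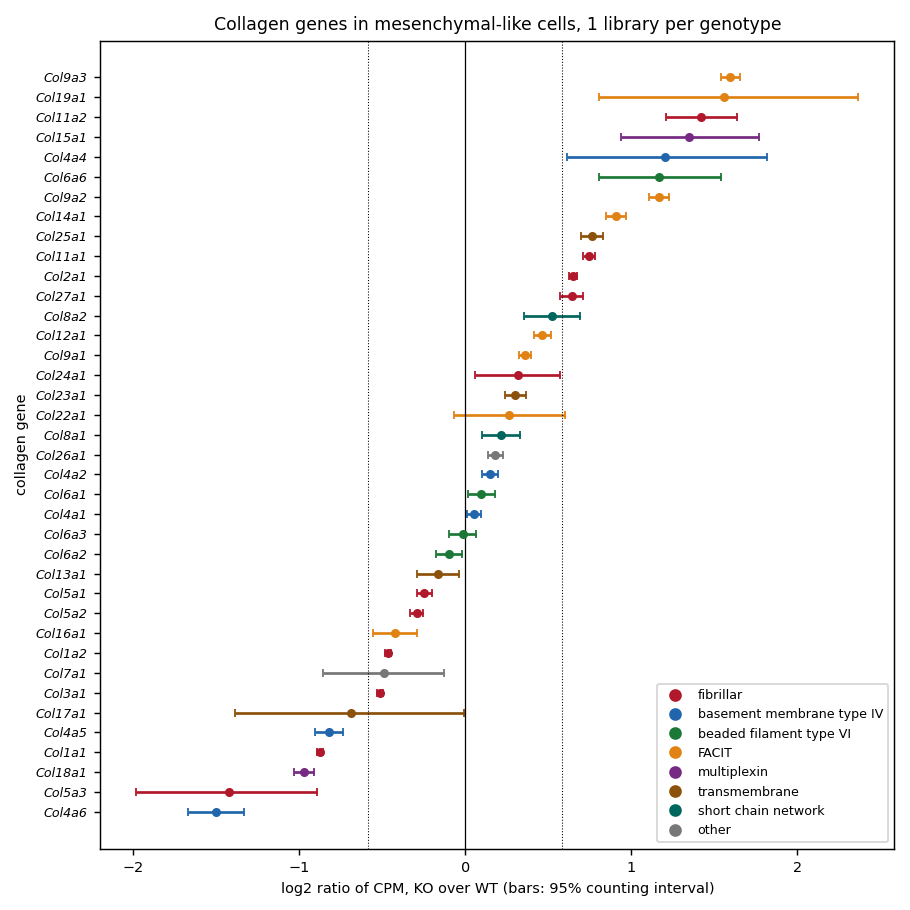
Points give the log2 ratio of CPM, KO over WT (x axis), of the 38 collagen genes (y axis) with at least 50 UMIs in mesenchymal-like cells, with 95% counting intervals, coloured by structural group. The dotted lines mark a 1.5-fold difference. Col9a3 lies farthest to the right at 1.60 and Col4a6 farthest to the left at −1.50.

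The type I chains differed from each other. Col1a1 reached 595 CPM in the WT and 324 CPM in the KO mesenchymal-like cells, a log2 ratio of −0.88 (−0.90 to −0.86). Col1a2 stood at 721 and 523 CPM, −0.46 (−0.48 to −0.45), and Col3a1 at 722 and 506 CPM, −0.51 (−0.53 to −0.50). The number of Col1a1 UMIs per Col1a2 UMI, where the protein holds both chains in a fixed proportion, was 0.825 (0.816 to 0.834) in WT and 0.620 (0.612 to 0.629) in KO. It was lower in KO in smooth muscle-like cells as well (0.985 and 0.740) and in sclerotome-like cells (0.729 and 0.610), but not in visceral mesenchyme-like cells (0.964 and 1.10). Of the 11 classes, Schwann precursor-like cells had the lowest value, 0.152 in WT and 0.190 in KO, and their WT level of Col1a2 was 339 CPM beside 51.7 CPM of Col1a1. The minor fibril chains differed less, Col5a1 with 84.9 and 71.5 CPM (−0.25) and Col5a2 with 118 and 96.2 CPM (−0.29). Col5a3, a rare chain, had 108 UMIs in WT and 41 in KO, a log2 ratio of −1.42 (−1.98 to −0.89). Of the described classes, it was highest in smooth muscle-like cells in WT (10.8 CPM) and in Schwann precursor-like cells in KO (9.31 CPM).

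Over all mesenchymal-like cells, the cartilage collagens were higher in KO, the chains of type IX unequally so. Col9a3 reached 31.6 CPM in the WT and 95.5 CPM in the KO cells (log2 ratio 1.60, 1.54 to 1.65), and Col9a2 33.2 and 74.4 CPM (1.16, 1.11 to 1.22). Col9a1 stood at 127 and 163 CPM, a log2 ratio of 0.36 (0.33 to 0.39). Col9a3 UMIs per Col9a1 UMI were 0.249 in WT and 0.587 in KO over all mesenchymal-like cells, and 0.425 and 0.752 in sclerotome-like cells alone. On the other strand, Tcfl5 overlaps Col9a3. Col2a1 stood at 234 and 367 CPM (0.65, 0.62 to 0.67), Col11a1 at 102 and 171 CPM (0.75, 0.71 to 0.78) and Col11a2 at 2.49 and 6.67 CPM (1.42, 1.21 to 1.64). Col2a1 was lower in KO, however, in visceral mesenchyme-like cells, with 75.3 and 46.7 CPM (−0.69, −0.93 to −0.46), and in coelomic-like cells, with 41.4 and 20.8 CPM (−0.99, −1.55 to −0.47). Col11a1 UMIs per Col5a1 UMI, whose chains can stand in for each other in fibrils, were 1.20 in WT and 2.39 in KO. Sox9, the transcription factor of cartilage and a marker of the sclerotome-like gate, stood at 116 and 151 CPM in mesenchymal-like cells, and at 352 and 376 CPM in sclerotome-like cells.

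Among the basement membrane and multiplexin collagens, the main type IV chains were close in the libraries while Col4a5, Col4a6 and Col18a1 were lower and Col4a4 and Col15a1, on few UMIs, higher in KO. Col4a1 reached 94.5 CPM in the WT and 97.8 CPM in the KO mesenchymal-like cells, and Col4a2 65.4 and 72.4 CPM. Col4a6 stood at 10.9 and 3.86 CPM (−1.50, −1.67 to −1.33) and Col4a5, its neighbour on the X chromosome, at 30.9 and 17.5 CPM (−0.82, −0.91 to −0.73). The libraries differ in the sex of their embryos as read from Xist, which is made from the inactive X chromosome and stood at 903 CPM in these cells of WT and at 0.0906 CPM in those of KO. The 503 X-linked genes tested in the same cells had a median log2 ratio of 0.029, with Xist and Tsix left out, and 3.18% of them lay below Col4a5. These values describe the X-linked genes as a set. Sex and genotype cannot be told apart here, and the part of sex in the ratios of Col4a5 and Col4a6 was not tested. Col18a1 stood at 73.1 and 37.3 CPM (−0.97, −1.03 to −0.91), while its level in endothelial-like cells was close in the libraries. Col15a1 had 69 UMIs in WT and 179 in KO (1.35, 0.94 to 1.77; 0.52 with cells gated after thinning to 2000 UMIs), Col4a4 35 and 82 (1.20, 0.61 to 1.82) and Col19a1 20 and 60 (1.56, 0.81 to 2.37), so that these ratios rest on few molecules. The 3 main chains of type VI collagen, Col6a1, Col6a2 and Col6a3, had log2 ratios of 0.096, −0.10 and −0.017.

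The classes differed in which collagens were lower or higher. In trunk mesenchyme-like cells, 4 of 35 members were at least 1.5-fold lower (4.68% of all genes) and 10 higher (5.1% of all genes). Their summed log2 ratio, −0.12, was −0.39 among the 1001 WT and 911 KO cells under 5% mitochondrial UMIs, where Col1a2 and Col3a1 were also lower past 1.5-fold. In smooth muscle-like cells, 6 of 29 members were lower (5.52% of all genes) and 7 higher (5.45% of all genes). Col1a1 and Col3a1 had log2 ratios of −0.65 and −0.64 there, and Col18a1 −1.32. The smooth muscle markers of the gate had a median summed level of 77.6 in the WT cells and 43.6 in the KO cells, in UMIs per 10000 UMIs of a cell, and the part of this in the ratios was not tested. Among the 125 WT and 72 KO smooth muscle-like cells under 5% mitochondrial UMIs, these ratios were −0.17, −0.070 and −0.012, and the summed ratio of collagens was 0.15 instead of −0.32.

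Visceral mesenchyme-like cells, which surround the gut, had the lowest summed ratio of the 11 classes (−0.76). It was −1.20 among the 138 WT and 66 KO cells of the class under 5% mitochondrial UMIs. The collagen share was 0.329% in WT and 0.194% in KO, with 12 of 27 members lower (6.72% of all genes) and 4 higher (4.65% of all genes). Col1a2 reached 749 CPM in the WT and 276 CPM in the KO cells (log2 ratio −1.44, −1.53 to −1.35), and Col1a1 722 and 304 CPM (−1.25, −1.33 to −1.16). Col12a1 had 32.0 and 9.06 CPM (−1.82, −2.34 to −1.33) and Col4a5 had 47.5 and 14.3 CPM (−1.74). In the other direction, Col4a1 had 37.5 CPM in the WT and 86.5 CPM in the KO cells (1.21, 0.98 to 1.43) and Col4a2 had 23.4 and 44.4 CPM (0.92, 0.62 to 1.23). The cells of the class differed between the libraries in a marker of this gate. Barx1, a factor of stomach and spleen mesenchyme, had 337 CPM in the WT cells and 1.59 CPM in the KO cells. They also differed in Tlx1 and Nkx2-5, which are not markers of the gate. These had 12.5 and 9.45 CPM in the WT cells and 0 CPM in the KO cells. Whether the KO library lacks cells of stomach and spleen mesenchyme or they hold less of these RNAs cannot be told apart here. With cells holding Barx1, Tlx1 or Nkx2-5 UMIs removed, 202 WT and 254 KO cells remained, the log2 ratios of Col1a2 and Col1a1 were −1.91 and −1.94, that of Col12a1 was −0.94, and those of Col4a1 and Col4a2 were 1.18 and 1.05. That of Col9a3, 0.072 in all cells of the class, was −1.46 without them.

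Sclerotome-like cells went the other way. The collagen share was 0.293% in WT and 0.393% in KO, and of 28 members none was lower (3.08% of all genes were) and 13 were higher (7.22% of all genes). Col9a3 reached 155 CPM in the WT and 332 CPM in the KO cells (1.10, 0.99 to 1.20), Col9a2 reached 159 and 241 CPM (0.60, 0.50 to 0.71), and Col11a1 241 and 376 CPM (0.64, 0.55 to 0.73). Col1a2, lower in the other mesenchymal-like classes, stood at 150 and 251 CPM (0.74, 0.64 to 0.85). Col2a1 itself differed less, at 965 and 1128 CPM (0.23). Among the 183 WT and 238 KO sclerotome-like cells under 5% mitochondrial UMIs, Col18a1 was lower past 1.5-fold and Col1a2 was not higher past it.

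Outside the mesenchyme, fewer collagens could be compared. In endothelial-like cells, 3 of 11 members were lower in KO (5.16% of all genes) and none higher (3.72% of all genes). The 3 were Col1a1, Col1a2 and Col3a1, with 24.4, 21.7 and 24.8 CPM in the WT cells and 5.37, 4.70 and 9.06 CPM in the KO cells. The most UMIs in any 1 WT cell were 43 of the 56 of Col1a1, 30 of the 50 of Col1a2 and 34 of the 57 of Col3a1, and whether these are the same cell was not examined. In Schwann precursor-like cells, none of 24 members was lower (3.86% of all genes) and 6 were higher (4.35% of all genes), Col9a2 and Col4a1 among them. In skeletal muscle-like cells, 3 of 26 members were lower (4.87% of all genes) and 8 higher (4.83% of all genes). Col9a3 had 10 UMIs in 4 of their WT cells and 150 UMIs in 27 KO cells, and 32 of the latter were in 1 cell. In coelomic-like cells, 1 of 19 members, Col2a1, was lower (6.62% of all genes) and 7 were higher (6.05% of all genes), with Col18a1 at 135 CPM in the WT and 218 CPM in the KO cells, and the 77 KO UMIs of Col9a3 were in 11 cells. In autonomic neuron-like cells, 7 of 13 members were lower (8.52% of all genes) and none higher (4.88% of all genes), and the cells had a median of 22005 UMIs in WT and 8244 in KO, whose part in these counts was not tested. Macrophage-like cells had 1 member to compare, Col1a2, which was higher (3.26% of all genes were, and 5.76% lower). In erythroid-like cells 4 of 5 members were lower, as were 47.0% of all genes (0.796% were higher), so nothing is read from them. Mesenchymal-like cells tied between classes had 7 of 30 members lower (4.83% of all genes) and 8 higher (4.71% of all genes).

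**Figure D5:**
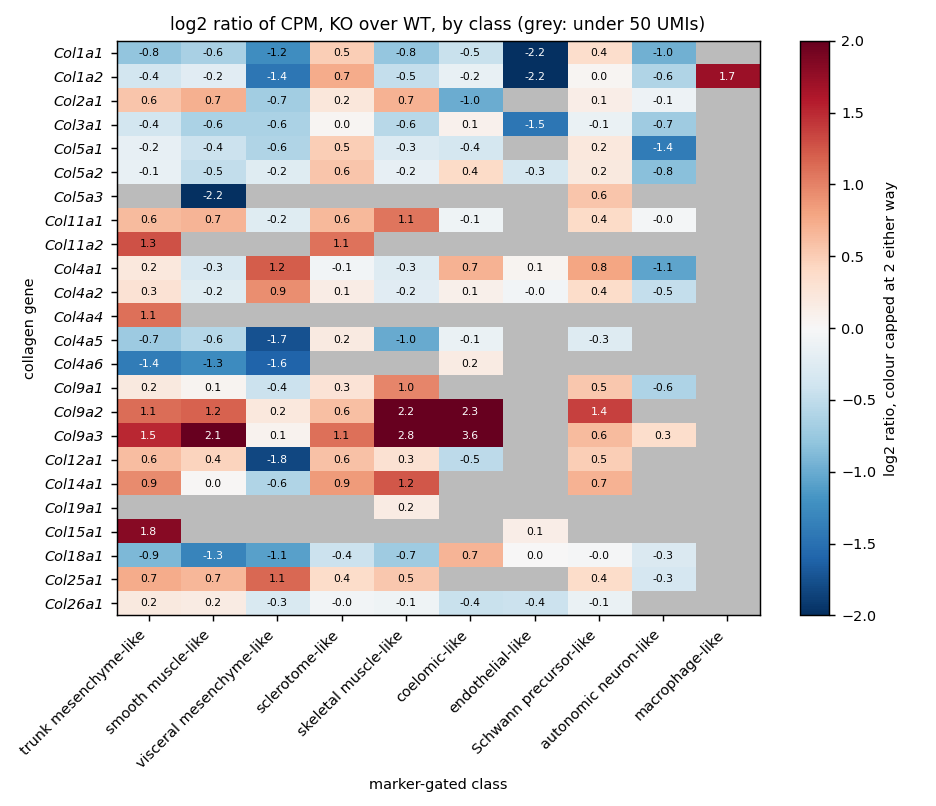
Numbers and colour (capped at 2 either way) give the log2 ratio of CPM, KO over WT, of 24 named collagen genes (rows) in 10 classes (columns), with grey where both libraries together held under 50 UMIs. Col1a1 is lower in 3 of the 4 mesenchymal-like classes and higher in sclerotome-like cells, and Col9a3 is above 0 in each of the 8 classes in which it could be compared, although below 0 in visceral mesenchyme-like cells without those holding Barx1, Tlx1 or Nkx2-5 UMIs (−1.46).

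Collagens are modified, folded and bound by many other proteins, and 44 such genes were compared in mesenchymal-like cells. Of these, 3 were at least 1.5-fold lower (5.16% of all genes were) and 3 higher (5.4%), a share near that of all genes, and their median log2 ratio was −0.023. The genes with the lowest ratios were those of small proteoglycans that coat fibrils, Dcn with 164 and 60.1 CPM (−1.45, −1.49 to −1.41) and Lum with 156 and 71.9 CPM (−1.11, −1.16 to −1.07). Next came P4ha2, a prolyl hydroxylase, with 44.3 and 27.5 CPM (−0.69), Pcolce, which speeds the trimming of procollagen, with 190 and 129 CPM (−0.56), and Itga1, a collagen receptor, with 18.2 and 13.3 CPM (−0.45). The highest ratios were those of Colgalt2, a collagen galactosyltransferase, with 50 and 131 UMIs (1.36, 0.88 to 1.86), of Tll1, a procollagen proteinase, and Itga11, a receptor of fibrillar collagen (both 0.73), of Plod1, a lysyl hydroxylase (0.51), and of Pcolce2 (0.49). Chosen after their values were seen, the abundant folding helpers differed little, Serpinh1, the collagen chaperone, with 798 and 718 CPM and Ppib, a prolyl isomerase, with 612 and 665 CPM. In visceral mesenchyme-like cells, 11 of 35 of these genes were lower (6.72% of all genes) and 1 higher (4.65%), with Dcn at 229 and 46.4 CPM and Lum at 168 and 31.5 CPM. In sclerotome-like cells, 1 of 36 was lower (3.08% of all genes) and 7 were higher (7.22%), with Fmod, the proteoglycan fibromodulin, also chosen after its values were seen, at 20.5 and 50.4 CPM.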

How the data were processed

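Both libraries were compared as UMI counts that the authors deposited for every gene and barcode, made with Cell Ranger 3.1.0 on mm10 (GRCm38) per the submitters' processing notes, without cell calling or normalization. Here, barcodes with at least 2000 UMIs and under 10% mitochondrial UMIs were kept (8253 and 8165), and classes were gated by 3 of 8 markers from 13 fixed lists, 1 of whose markers is not in the files. Cells passing gates of different lineages (300 in WT, 184 in KO) were left out, no doublet caller was run, and classes under 50 cells were not described. UMIs were summed per class, scaled to CPM, and given exact Poisson or conditional binomial intervals at 95%. No replicates exist, so a member counts as lower or higher past 1.5-fold, without a test. Genes named are those reaching 100 CPM in a class, the 5 largest increases and decreases over 50 UMIs, the same of the processing list, and chain partners. The members and lists were chosen with earlier results of these data known. Ratios and intervals were run on simulated counts drawn with Poisson error alone, the error that the intervals assume. Such counts do not clump in single cells, so the run cannot show that the intervals hold for these libraries. Python 3.11.15, numpy 2.4.6, scipy 1.17.1, pandas 2.3.3 and edgeR 4.0.16 in R 4.3.3 (TMM factors, as an alternative) were used. Coding sequences and positions come from GENCODE M21.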

Additional observations from a re-analysis of the deposited data

Results flagged for a closer look

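Col8a1, a short chain network collagen named here after its values were seen, was lower in KO in visceral mesenchyme-like cells (144 UMIs in WT, 7 in KO, log2 ratio −3.64) and higher in sclerotome-like cells (44 and 279 UMIs, 1.93). It stands out because its ratios lie on opposite sides past 1.5-fold, intervals included. Those intervals count molecules and leave out the variation between cells. With cells holding Barx1, Tlx1 or Nkx2-5 UMIs removed, the visceral mesenchyme-like cells held 18 and 7 UMIs (−1.90), and the sclerotome-like cells 44 and 277 (1.87). The difference between classes was not tested.

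Col1a2 did so in macrophage-like cells (19 UMIs in WT, 50 in KO, log2 ratio 1.71) and endothelial-like cells (50 and 14 UMIs, −2.21). A single KO macrophage-like cell held 25 of the 50 UMIs, and a single WT endothelial-like cell held 30 of the 50. The difference between classes was not tested.

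The barcodes of at most 100 UMIs, which enter no comparison of classes, gave a collagen share of 0.264% of UMIs in WT and 0.293% in KO, higher in KO, while the cells of all classes together gave 0.285% and 0.269%.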

How the results depend on the processing

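No paired analysis was possible because each genotype has 1 library and no test was made. The WT collagen share of mesenchymal-like cells, 0.344%, was 0.346% with at least 5000 UMIs, 0.338% under 5% mitochondrial UMIs, 0.292%, 0.366% and 0.398% with gates of 2 markers, 4 markers and after thinning, 0.365% without globin, mitochondrial and Xist UMIs, 0.327% as a per-cell mean, 0.356% without cells holding Barx1, Tlx1 or Nkx2-5 UMIs, and 0.277% without cells holding a Pdgfrb UMI in either library, a setting chosen after seeing the data. The summed log2 ratio, −0.14, was −0.24 under 5% mitochondrial UMIs, 0.059, −0.21 and −0.23 with those gates, −0.11 as a per-cell mean, −0.15 without KO cells holding a Pdgfrb UMI, −0.19 without the Barx1, Tlx1 or Nkx2-5 cells, −0.15 and −0.17 with median-ratio and TMM scales, −0.18 with equal class weights, and 0.16 without Pdgfrb cells in either library. That setting also left 2 members lower instead of 6, and a 2-fold limit left 2 lower and 7 higher instead of 12. The median member ratio, 0.20, was 0.32 under 5% mitochondrial UMIs and 0.39 without Pdgfrb cells in either library.

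Among the named genes, 91 ratios were past 1.5-fold, by class or in all mesenchymal-like cells, and a few turned direction. The named genes include those with the largest ratios, so the values that follow describe a chosen list. Col1a1 in skeletal muscle-like cells (−0.77) was 0.58 under 5% mitochondrial UMIs, 0.36 with 2 markers and 0.038 without Pdgfrb cells, and Col9a1 in autonomic neuron-like cells 0.65 as a per-cell mean, 0.036 with 2 markers and 0.86 without Pdgfrb cells. Col18a1 in coelomic-like cells was −0.41 under 5% mitochondrial UMIs. Col1a2 in macrophage-like cells was −0.28 with 4 markers and −0.065 with the thinned gate, which also gave −0.21 for Col11a1 in skeletal muscle-like and for Col4a1 in coelomic-like cells and 0.052 for Col14a1 in visceral mesenchyme-like cells, the last being 0.31 without the Barx1, Tlx1 or Nkx2-5 cells. The causes were not tested. Of the ratios that could be compared, 60 of 84 stayed past 1.5-fold in the same direction without Pdgfrb cells in either library (a choice that follows the genotype). The numbers that stayed were 62 of 84 with the thinned gate, 54 of 66 under 5% mitochondrial UMIs and 74 of 85 with 2 markers. They were 75 of 91 as per-cell means, 82 of 89 with 4 markers, 82 of 91 under TMM and 83 of 91 under median-ratio scales. Under the other settings with all 91 compared, at least 85 stayed. After free RNA was subtracted, 88 of 88 stayed, but ratios left without UMIs in a library had dropped out of the 91. Those of Col1a1 and Col1a2 in endothelial-like cells were among the ones that dropped out. That setting therefore shows no stability for the ratios that dropped out. Counts of a few molecules set the limit for Col4a4, Col5a3, Col15a1 and Col19a1.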

Other observations

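Cells that passed no gate, 1277 in WT and 1326 in KO with medians of 3363 and 3683 UMIs, had collagen shares of 0.164% (0.161 to 0.167%) and 0.219% (0.215 to 0.222%). Cells left out for passing gates of different lineages, with medians of 37257.5 and 43561 UMIs, had 0.362% and 0.221%.

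Epithelial-like cells, 12 in WT and 20 in KO, had collagen shares of 0.0563% (0.0491 to 0.0643%) and 0.0640% (0.0559 to 0.0730%). They were too few to be described by gene.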
